A study of Rattus norvegicus with 4 samples.

Results

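Translation initiation and elongation factors are the proteins that load ribosomes onto messenger RNA and move them along it. Their genes were taken as the entries of the deposited table whose symbol begins with Eif or Eef followed by a digit. The 4 genes of kinases that phosphorylate eIF2, with symbols beginning with Eif2ak, were left out. The rule gave 58 of 17853 genes, 48 with initiation factor symbols and 10 with elongation factor symbols. A mean of at least 1 RPKM (reads scaled to the length of the gene and to the mapped reads of the library) over the 4 libraries was reached by 56. Eif4e1b, a cap-binding paralog, lay between 0.02 and 0.21 RPKM in every library, and Eef1b2l, named as an Eef1b2-like gene, was at or under 0.09 RPKM and listed at 0 in the 21 month ipsilateral library.

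Polyadenylated RNA of rat brain was sequenced after intracerebral hemorrhage, in which blood escapes into the tissue. The 4 groups were the ipsilateral (bleeding) side at 21 months of age, called old, the contralateral (opposite) side at 21 months, the ipsilateral side at 13 months, called adult, and the contralateral side at 13 months. All 4 groups carried the hemorrhage, so neither the contralateral side nor either age is an uninjured control. The strain, the way the hemorrhage was made, the time after it and the brain regions taken are not given in the labels. Each group was 1 library of pooled RNA; the labels' protocols name 9 brains and do not say how they were divided among the groups. A comparison of single libraries therefore has no replicate check and no test.

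In initiation, eIF4E binds the cap of the messenger RNA, the scaffold eIF4G and the helicase eIF4A join it, eIF2 brings the initiator tRNA, eIF3 holds the small ribosomal subunit, and eIF5B joins the large subunit. In elongation, eEF1A delivers the aminoacyl-tRNAs, the eEF1B subunits reload eEF1A with GTP, and eEF2 moves the ribosome forward. Cells adjust the rate mainly through the eIF4E-binding proteins, which mTOR switches off by phosphorylation, through phosphorylation of eIF2, and through the kinase eEF2K. Mature neurons use particular paralogs of several factors, the best known being eEF1A2, which in mice replaces eEF1A1 in neurons and muscle after birth.

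The messenger RNAs of many of these factors begin with a tract of pyrimidines through which mTOR controls their translation. The starts of 4 elongation factor genes are shown because 3 of them were higher on the ipsilateral side at 13 months while their paralog or partner Eef1a2 was lower. That split was not shared by 21 months. There the log2 ratios of ipsilateral to contralateral were 0.33 for Eef1a1, -0.73 for Eef1b2, 0.51 for Eef1g and -0.03 for Eef1a2. Each line gives 20 bases before to 10 bases after the RefSeq start in GRCr8, read 5′ to 3′ on the gene's strand, with the longest run of C or T in capitals.
Eef1a1 (chr8:88225060-88225089, minus strand): ggtagtcgccttggacgTTCTTTTTCgcaa
Eef1b2 (chr9:72074071-72074100, plus strand): ggacttttccggccggtcccggCCCTTTTT
Eef1g (chr1:215289795-215289824, plus strand): CCCCCTTTCTCTgcggaatcaccatggcgg
Eef1a2 (chr3:188652624-188652653, minus strand): TCCCTCgctcgggtacatctctgcagctgc

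Within the bases shown, the run was 9 bases long in Eef1a1, 8 in Eef1b2, 12 in Eef1g and 6 in Eef1a2. It reached the edge of the bases shown in Eef1b2, Eef1g and Eef1a2, so these lengths are minimums. It lay wholly before the annotated start in Eef1g and Eef1a2, across it in Eef1a1 and after it in Eef1b2. No marked run began at the annotated first base, though the run of Eef1a1 included it. A marked run therefore cannot be taken as a tract that begins the messenger RNA. A run of at least 8 was present in 4 of 8 windows of genes with elongation factor symbols (50%). Of the 54 windows that RefSeq gave for 51 of the 58 genes, 13 held such a run (24.1%). Such a run was present in 12.4% of 10067 windows of all genes tested. Eef2k, which is not shown, was also higher on the ipsilateral side at 13 months (log2 side ratio 0.54), and its longest run was 4. These are letters at annotated starts, and the starts used in these tissues were not measured. Whether the runs bear on the RNA levels was not tested.

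Library facts were as follows. RPKM summed to between 388632 and 402100 per library, and the depth in reads is unknown, since the table gives no counts and its values are rounded to 2 decimals. The translation factor genes together took 0.907% of the sum in the 21 month ipsilateral library, against 0.888% in the contralateral one, and 1.01% in the 13 month ipsilateral library, against 0.899% in the contralateral one. Mitochondrially encoded genes took 20.6% of the ipsilateral and 24.1% of the contralateral sum at 21 months, and 18.5% and 23.3% at 13 months. Leaving them out of the scaling shifted the median of all genes by -0.10 at 21 months and -0.09 at 13 months in the side comparison, on the log2 scale. Of 58 genes 57 had a RefSeq gene of the same symbol. For Eif3e and Eif3h, which the table places on chromosomes 13 and 6, the RefSeq gene lies on another chromosome, so these entries may be copies of the genes they are named after. Copies such as pseudogenes, named after 34 of the 58 genes, number 131 in RefSeq. Reads that match both a gene and its copies cannot be told apart, and how they were counted is not given in the sources used here.

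By level per length, the highest means over the 4 libraries were those of Eef1a2 (349 RPKM), the helicase gene Eif4a2 (337 RPKM), Eef2 (298 RPKM), the eEF1B subunit gene Eef1b2 (215 RPKM) and the eIF2 beta subunit gene Eif2s2 (183 RPKM). The level of Eef1a1 was far lower, at 30.5 RPKM, and 22 RefSeq copies are named after this gene, more than after any other of the 58. The values below are RPKM levels, and log2 ratios are differences of log2(RPKM + 1), which understate the change of low genes. Ratios of at least 0.5 or at most -0.5 (1.41-fold) were counted, and the larger size of 1 (2-fold) is given beside them.

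The first comparison set the injured side against the opposite one at each age. The data showed a small upward shift of most factors on the ipsilateral side. The eIF4E-binding protein gene Eif4ebp1 and the cap-binding gene Eif4e2 had a larger rise. Eef1a2, Eif4a2, Eif4g3, Eif1b and Eif5a2 were lower in both ipsilateral libraries than in both contralateral ones, in part by little. The ratios were -0.03 for Eef1a2 and -0.06 for Eif5a2 at 21 months, and -0.02 for Eif4g3 at 13 months. None of these 5 genes passed in the limma fit described below. The median log2 side ratio of the 56 genes was 0.20 at 21 months, against 0.09 for all 12160 genes tested, and 0.28 at 13 months, against 0.01 for all genes. Ratios were above 0 for 40 of 56 factors at 21 months (background 60.8%) and for 45 of 56 at 13 months (background 50.8%). Both ipsilateral libraries were above both contralateral ones for 31 of 56 genes, 55.4%, with a background of 34.4% of all genes. Both were below for 5 of 56, 8.93%, with a background of 22.1%. Scaled without the mitochondrially encoded genes, 24 were above (42.9%, background 26%) and 6 below (10.7%, background 34.5%). The median side ratio of the factors stayed above 0 at both ages under both other scalings.

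**Figure D1:**
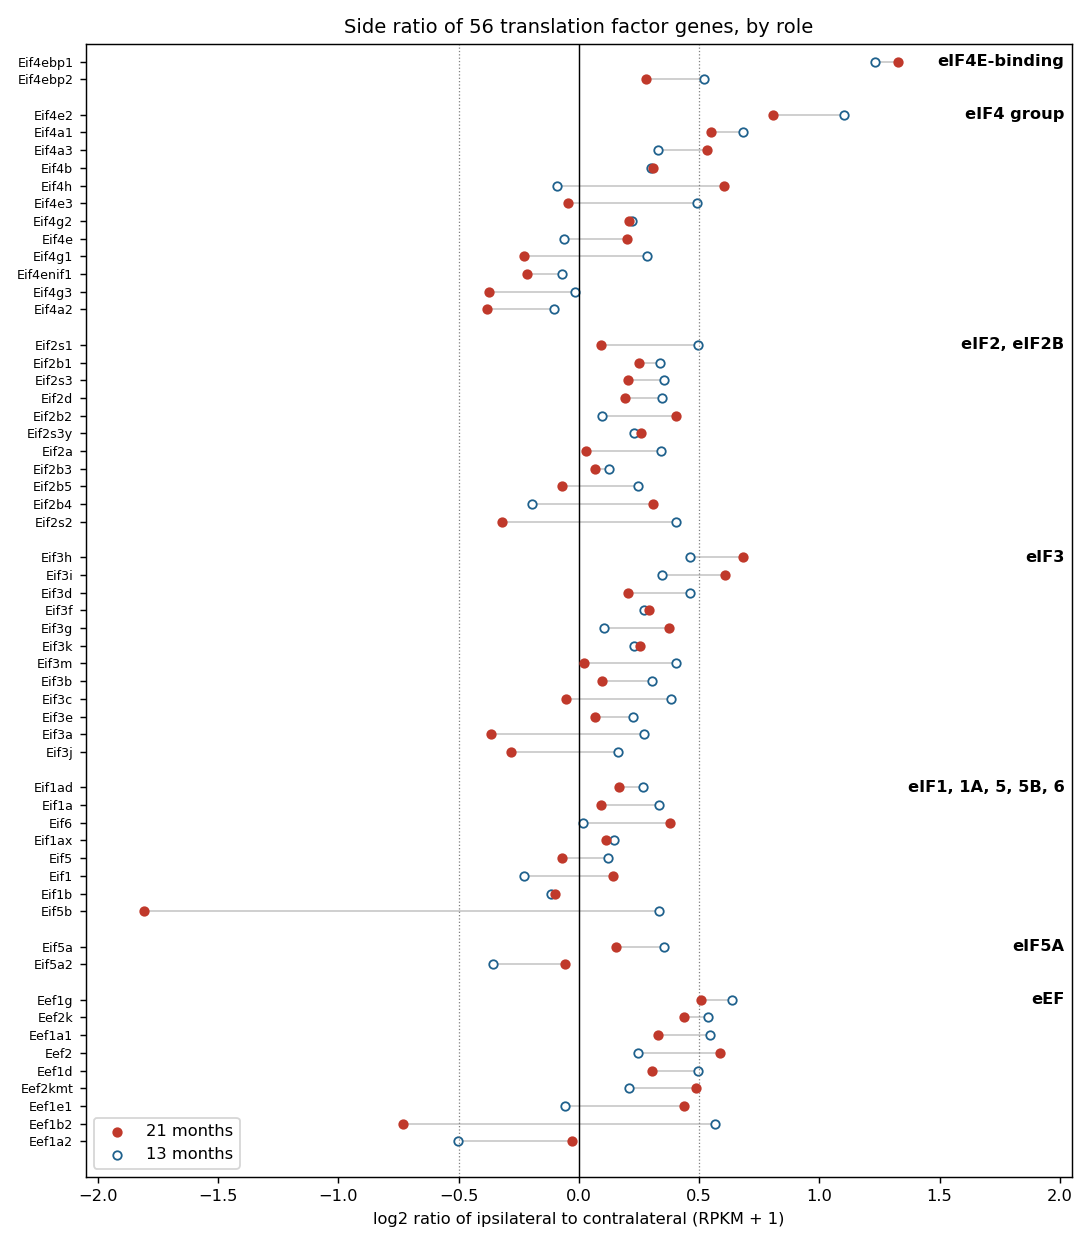
Log2 ratio of ipsilateral to contralateral (RPKM + 1) on the x axis for 56 translation factor genes in 7 role groups, with filled points for 21 months, open points for 13 months and dotted lines at -0.5 and 0.5. Eif4ebp1 lies farthest to the right at both ages (1.33 and 1.23), and Eif5b lies at -1.81 at 21 months and at 0.33 at 13 months.

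Past 0.5 in size, 9 of 56 genes were higher on the ipsilateral side at 21 months (16.1%, background 16.3%) and 2, Eif5b and Eef1b2, were lower (3.57%, background 2.94%). At 13 months 8 of 56 were higher (14.3%, background 15.2%) and 1, Eef1a2, was lower (1.79%, background 4.09%). These shares lie near the background, so the count of larger changes does not set the factors apart. Higher by at least 0.5 at both ages were 4 genes, namely Eif4ebp1, Eif4e2, Eif4a1 and Eef1g (7.14%, background 10.7%), and lower at both ages by as much were 0 (background 0.247%). Past 1, Eif4ebp1 was the 1 gene higher at 21 months (background 5.61%) and Eif5b the 1 gene lower (background 0.288%). Eif4ebp1 and Eif4e2 were higher past 1 at 13 months (background 7.19%), and 0 were lower (background 0.0658%).

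The same question was put to the 4 libraries together with limma, in a model of side plus age. It put 2 libraries on each side and left 1 residual degree of freedom. The SE given with a limma value is therefore drawn largely from a spread shared over all genes. At a Benjamini-Hochberg threshold of 0.05 over all 12160 genes, 5 of 56 rose on the ipsilateral side (background 13.3%) and 0 fell (background 0.814%). The 5 were Eif4ebp1, Eif4e2, Eif4a1, Eef1g and Eif3h. At an unadjusted p under 0.05 in limma there were 12 of 56 higher and 1 lower, Eif5b, against 2299 higher and 544 lower of all 12160 genes. Eef1g and Eif3h did not pass with 0.1 RPKM added in place of 1, and Eif4a1, Eef1g and Eif3h did not pass when the libraries were scaled without the mitochondrially encoded genes. Without the filter on low values, 0 of all 17853 genes passed in limma, and so 0 of the 58, of which 16 were higher at an unadjusted p under 0.05.

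Eif4ebp1 (ENSRNOG00000012582, chromosome 16) encodes 4E-BP1, which in its unphosphorylated form holds eIF4E away from eIF4G. It had 16.9 RPKM in the 21 month ipsilateral library, against 6.15 RPKM in the contralateral one, and 15.8 RPKM in the 13 month ipsilateral library, against 6.15 RPKM in the contralateral one. Both ipsilateral libraries stood far above both contralateral ones, which were equal. The log2 side ratios were 1.33 at 21 months and 1.23 at 13 months, and Eif4ebp1 rose by 1.28 ± 0.17 in limma (SE, 2 libraries per side, adjusted p = 5.97e-06). Eif4ebp2 (ENSRNOG00000055391, chromosome 20), its paralog known as the main form in brain, had 4.76 RPKM ipsilaterally and 3.74 RPKM contralaterally at 21 months, and 5.34 and 3.42 RPKM at 13 months. Its ratios of 0.28 and 0.52 had the same sign at both ages, and it did not pass in limma (adjusted p = 0.149). The share of Eif4ebp1 in the sum of both paralogs was 78.0% ipsilaterally and 62.2% contralaterally at 21 months, and 74.7% and 64.3% at 13 months.

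Eif4e2 (ENSRNOG00000019634, chromosome 9) encodes 4EHP, a cap-binding protein that does not bind eIF4G and is known as a repressor of translation. It had 17.9 RPKM in the 21 month ipsilateral library, against 9.79 RPKM contralaterally, and 22.9 RPKM in the 13 month ipsilateral library, against 10.1 RPKM contralaterally. Both ipsilateral values were above both contralateral ones, and Eif4e2 rose by 0.96 ± 0.17 in limma (SE, 2 libraries per side, adjusted p = 0.000275). Eif4e (ENSRNOG00000052343, chromosome 2), the standard cap-binding factor, stayed between 24.1 and 27.8 RPKM in the 4 libraries, with side ratios of 0.20 and -0.06. The ratio of Eif4e2 to Eif4e was accordingly 0.643 ipsilaterally and 0.407 contralaterally at 21 months, and 0.931 and 0.393 at 13 months. The absolute size of this ratio is uncertain, since 10 RefSeq copies are named after Eif4e and 1 after Eif4e2. The third paralog, Eif4e3, had side ratios of -0.04 at 21 months and 0.49 at 13 months.

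**Figure D2:**
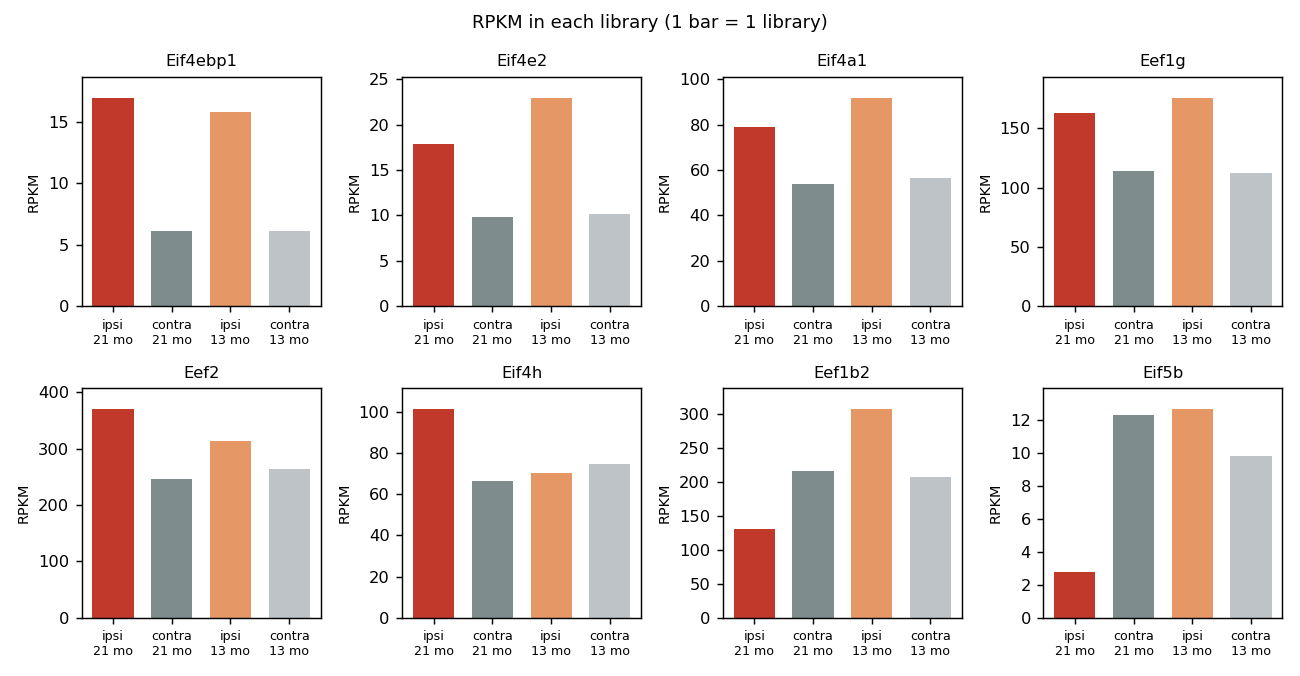
RPKM of 8 translation factor genes in each library, 1 bar per library, with ipsilateral left of contralateral at 21 months and then at 13 months, each axis starting at 0. Eif4ebp1 and Eif4e2 are higher in both ipsilateral libraries, while Eif5b and Eef1b2 are low in the 21 month ipsilateral library (2.80 and 130.04 RPKM).

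The helicase paralogs Eif4a1 and Eif4a2 had side ratios of opposite sign. Eif4a1 (ENSRNOG00000030628, chromosome 10) had 79.1 RPKM ipsilaterally and 53.6 RPKM contralaterally at 21 months, and 91.7 and 56.7 RPKM at 13 months, and rose by 0.62 ± 0.17 in limma (SE, 2 libraries per side, adjusted p = 0.0139). Eif4a2 (ENSRNOG00000001815, chromosome 11) had 283 RPKM ipsilaterally and 369 RPKM contralaterally at 21 months, and 335 and 360.0 RPKM at 13 months. Both ipsilateral values of Eif4a2 were below both contralateral ones, with ratios of -0.38 and -0.10, and it did not pass in limma (adjusted p = 0.44). Eif4a2 exceeded Eif4a1 in every library, 3.58-fold ipsilaterally and 6.89-fold contralaterally at 21 months, and 3.65-fold and 6.35-fold at 13 months. Such ratios within a library do not depend on how the libraries are scaled. The absolute ratio is uncertain because of copies, of which RefSeq names 9 after Eif4a1 and 2 after Eif4a2.

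Eef1a2 (ENSRNOG00000012477, chromosome 3) had 359 RPKM ipsilaterally and 366 RPKM contralaterally at 21 months, and 278 and 394 RPKM at 13 months. Eef1a1 (ENSRNOG00000009439, chromosome 8) had 30.2 RPKM ipsilaterally and 23.8 RPKM contralaterally at 21 months, and 40.7 and 27.5 RPKM at 13 months. Eef1a2 was thus lowest in the 13 month ipsilateral library, where Eef1a1 was highest. The ratio of Eef1a2 to Eef1a1 was 11.9 ipsilaterally and 15.4 contralaterally at 21 months, and 6.84 and 14.3 at 13 months. On the log2 scale the pair ratio differed between the sides by -0.37 at 21 months and by -1.07 at 13 months. Neither gene passed in limma (adjusted p = 0.405 for Eef1a2 and 0.105 for Eef1a1), and the absolute ratio is uncertain because of the copies of Eef1a1.

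In a further 3 pairs 1 paralog was below both contralateral libraries in both ipsilateral ones. Eif5a2, whose product is a paralog of the hypusine-carrying factor eIF5A, had 15.5 RPKM ipsilaterally and 16.2 RPKM contralaterally at 21 months, and 12.6 and 16.3 RPKM at 13 months, while Eif5a had 127 and 114 RPKM at 21 months and 151 and 118 RPKM at 13 months, ipsilateral first. The log2 ratio of Eif5a2 to Eif5a was lower ipsilaterally by 0.22 at 21 months and by 0.74 at 13 months. Eif1b, a paralog of the start-codon factor Eif1, had 126 and 136 RPKM at 21 months and 124 and 134 RPKM at 13 months, ipsilateral first, whereas Eif1 had 146 and 132 RPKM at 21 months and 114 and 133 RPKM at 13 months. The pair ratio of Eif1b to Eif1 differed between the sides by -0.25 at 21 months and by 0.11 at 13 months, so its direction was not shared by the ages. Eif4g3, an eIF4G scaffold paralog, had 41.8 and 54.4 RPKM at 21 months and 51.7 and 52.3 RPKM at 13 months, ipsilateral first. Its paralog Eif4g1 was listed at only 2.11 and 2.64 RPKM at 21 months and 3.74 and 2.89 RPKM at 13 months, ipsilateral first. The pair ratio of Eif4g3 to Eif4g1 differed between the sides by -0.06 and -0.39. These genes also did not pass in limma, with adjusted p values of 0.527 for Eif5a2, 0.768 for Eif1b and 0.561 for Eif4g3.

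**Figure D3:**
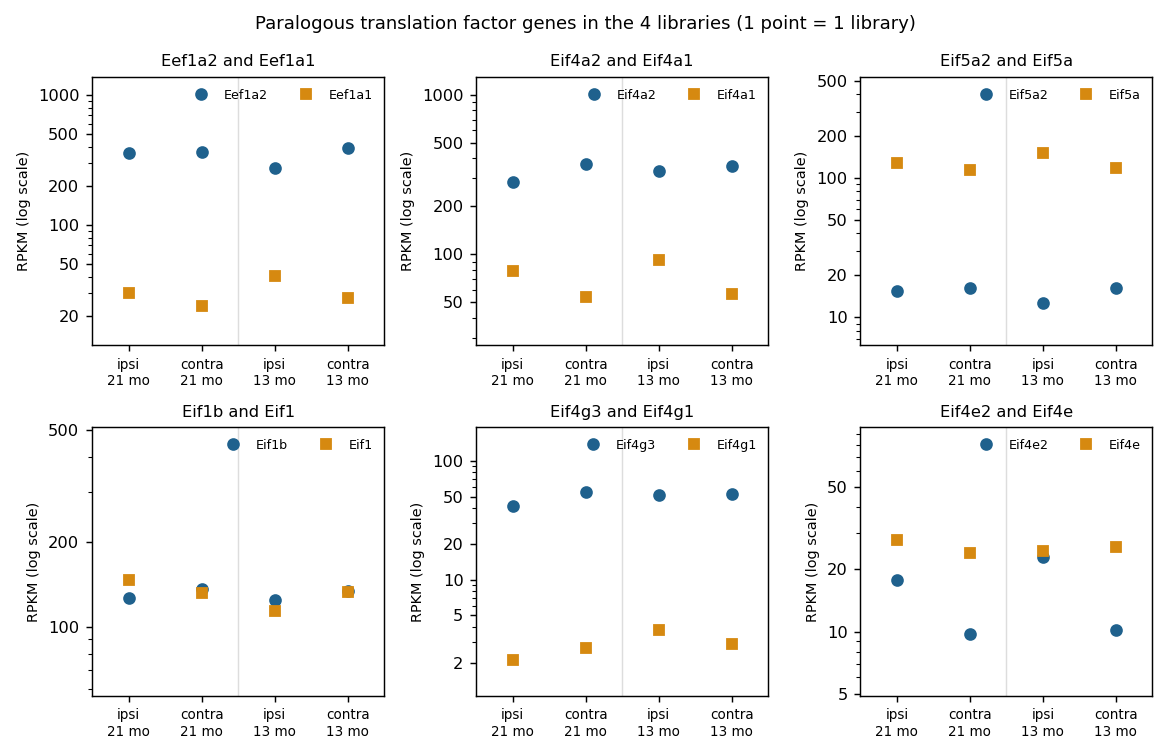
RPKM on a log scale of 6 pairs of paralogous genes in the 4 libraries, 1 point per library, ipsilateral left of contralateral at each age. The gap between Eef1a2 and Eef1a1 and between Eif4a2 and Eif4a1 is narrower in the ipsilateral libraries, at 11.9-fold and 3.58-fold at 21 months, against 15.4-fold and 6.89-fold contralaterally.

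Markers of cell types moved with the sides as well. The 13 neuron markers had a median log2 side ratio of -0.28 at 21 months and -0.42 at 13 months. Above 0 were 3 of 13 at 21 months and 0 of 13 at 13 months, and 2 of 13 fell in limma (background 0.814%). Their RPKM summed to 1671 ipsilaterally and 1998 contralaterally at 21 months, and to 1478 and 2052 at 13 months. The 8 microglia and macrophage markers matched had a median of 2.37 at both ages, with 8 of 8 rising in limma (background 13.3%). Their RPKM summed to 229 ipsilaterally and 47.2 contralaterally at 21 months, and to 302 and 55.3 at 13 months. No marker of either list was at 0 in any library. The 7 astrocyte markers had medians of 0.11 and -0.04, with 5 of 7 above 0 at 21 months and 3 of 7 at 13 months. Their RPKM summed to 2137 ipsilaterally and 1181 contralaterally at 21 months, and to 1918 and 1359 at 13 months. Of them 1 rose in limma, Gfap, an intermediate filament gene of reactive astrocytes (adjusted p = 4.47e-07). Gfap had 1225 RPKM ipsilaterally and 340.1 RPKM contralaterally at 21 months, and 1151 and 443 RPKM at 13 months. The higher ipsilateral sums therefore rest largely on Gfap. The 7 oligodendrocyte markers had medians of 0.39 and -0.12 at 21 and 13 months, and their RPKM summed to 2702 ipsilaterally and 2222 contralaterally at 21 months, and to 1989 and 2367 at 13 months. The 8 lymphocyte and neutrophil markers were above 0 at both ages, with RPKM sums of 38.6 ipsilaterally and 8.03 contralaterally at 21 months, and 77.0 and 4.32 at 13 months. The part of these cell types in the side ratios of the translation factors was not tested. In bulk tissue, fewer cells of a type and less RNA per cell cannot be told apart.

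The 9 genes with elongation factor symbols that were tested include Eef2k, Eef2kmt and Eef1e1, whose products are not themselves elongation factors. Of the 9, 2 were higher by at least 0.5 at 21 months and 4 at 13 months (backgrounds 16.3% and 15.2%). Their medians were 0.44 and 0.50, against 0.09 and 0.01 for all genes. At each age 1 was lower (Eef1b2 at 21 months and Eef1a2 at 13 months). Eef1g (ENSRNOG00000020075, chromosome 1), the gamma subunit gene of eEF1B, had 163 RPKM ipsilaterally and 114 RPKM contralaterally at 21 months, and 176 and 113 RPKM at 13 months, and rose by 0.57 ± 0.17 in limma (SE, 2 libraries per side, adjusted p = 0.0234). Eef2 (ENSRNOG00000020266, chromosome 7), the translocase gene, had 369.5 and 246 RPKM at 21 months and 313 and 264 RPKM at 13 months, ipsilateral first, and did not pass in limma (adjusted p = 0.136). Both ipsilateral values of each of these genes were above both contralateral ones. Their levels are uncertain because of copies, of which RefSeq names 16 after Eef1g and 5 after Eef2. Eef2k, the kinase that inhibits eEF2, had 8.42 and 5.96 RPKM at 21 months and 7.52 and 4.87 RPKM at 13 months, ipsilateral first, with side ratios of 0.44 and 0.54 (adjusted p = 0.0615 in limma). Eef1d, the delta subunit gene of eEF1B, had ratios of 0.30 and 0.50, and Eef2kmt, which encodes a methyltransferase of eEF2, had 0.49 and 0.21. Eef1e1, whose product belongs to the aminoacyl-tRNA synthetase complex, had 0.44 at 21 months and -0.06 at 13 months. Scaled by median ratio, Eef2 had a side ratio of 0.48 and Eef1g of 0.40 at 21 months, under the size of 0.5.

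Subunits of the multi-protein factors differed widely in level and little between the sides. The 12 eIF3 subunit genes had medians of 0.15 at 21 months and 0.29 at 13 months. Higher by at least 0.5 at 21 months were Eif3h and Eif3i, and at 13 months 0 of 12. Eif3h (ENSRNOG00000004252) had 54.3 RPKM ipsilaterally and 33.4 RPKM contralaterally at 21 months, and 39.4 and 28.3 RPKM at 13 months, and rose by 0.57 ± 0.17 in limma (SE, 2 libraries per side, adjusted p = 0.0247), for an entry whose identity is in doubt as stated above. Eif3i had 19.1 and 12.2 RPKM at 21 months and 16.6 and 12.8 RPKM at 13 months, ipsilateral first (adjusted p = 0.0721 in limma). Levels of eIF3 subunits within the 21 month ipsilateral library ran from 1.48 RPKM for Eif3e, the other entry in doubt, to 149 RPKM for Eif3g.

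The 11 genes of eIF2, its exchange factor eIF2B and the related factors Eif2a and Eif2d had medians of 0.19 at 21 months and 0.34 at 13 months, and 0 of 11 passed in limma, with 0 at an unadjusted p under 0.05. The 3 kinds of eIF2 subunit were unequal in level: Eif2s2 lay between 138 and 241 RPKM, Eif2s1, the subunit that the stress kinases phosphorylate, between 50.8 and 72.9 RPKM, and the X-linked Eif2s3 between 23.7 and 32.3 RPKM. Its Y-linked counterpart Eif2s3y had levels of 67.2 and 56.01 RPKM at 21 months and 71.5 and 60.8 RPKM at 13 months, ipsilateral first, and reads of these near-identical genes may have been split between them. The 5 eIF2B subunit genes lay between 8.57 and 24.1 RPKM. Eif2b4 had the largest difference of side ratio between the ages among them, 0.50, with 24.1 RPKM ipsilaterally and 19.2 RPKM contralaterally at 21 months, and 18.9 and 21.8 RPKM at 13 months. Eif2b1 had ratios of 0.25 and 0.34, and Eif2d 0.19 and 0.35.

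The other initiation factor genes did not pass in limma. Eif4a3, a helicase of the exon junction complex, had 43.2 and 29.6 RPKM at 21 months and 39.5 and 31.2 RPKM at 13 months, ipsilateral first, and did not pass in limma (adjusted p = 0.11). Eif4b, a cofactor of eIF4A, had side ratios of 0.31 and 0.30, and Eif4g2, an eIF4G relative that lacks the eIF4E site, had 0.21 and 0.22. Eif4enif1, the eIF4E transporter, was lower at both ages, with -0.22 and -0.07. Eif6, which keeps the large ribosomal subunit apart from the small one, had 33.04 and 25.2 RPKM at 21 months and 24.4 and 24.1 RPKM at 13 months, ipsilateral first, so that it was high in the 21 month ipsilateral library alone. The GTPase-activating factor gene Eif5 had ratios of -0.07 and 0.12, and the start-codon factor gene Eif1ax had 0.11 and 0.14. The 8 genes grouped with eIF1, eIF5 and eIF6 had medians of 0.10 and 0.13, and the median at 21 months was -0.01 when the libraries were scaled without the mitochondrially encoded genes.

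**Figure D4:**
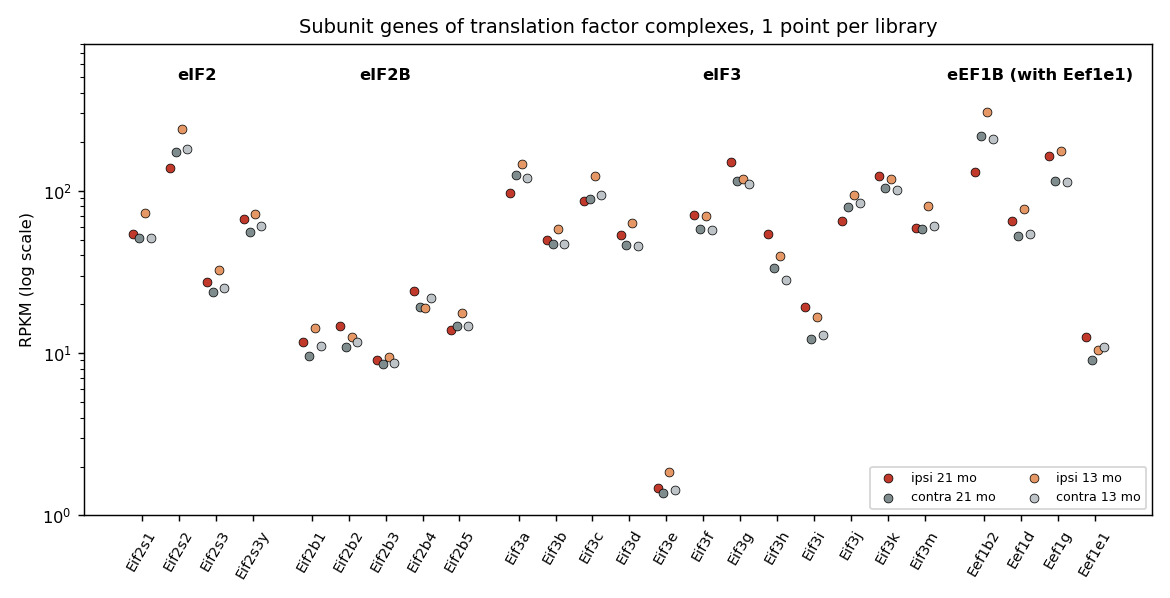
RPKM on a log scale of subunit genes of eIF2, eIF2B, eIF3 and eEF1B (with Eef1e1 beside them), 1 point per library, ipsilateral left of contralateral, 21 months left of 13 months. Levels differ far more between subunits, from 8.57 RPKM for Eif2b3 to 307 RPKM for Eef1b2, than between libraries for the same subunit; Eif3e, at 1.37 to 1.84 RPKM, may be a copy of the gene it is named after.

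The second comparison set the old rats against the adult ones on each side. On the contralateral side 0 of 56 factors were higher by at least 0.5 at 21 months than at 13 months (background 0.905%) and 0 were lower (background 0.666%), with a median of -0.03, as for all genes (-0.03). Past 1 the contralateral counts were likewise 0 and 0 (backgrounds 0.206% and 0.132%). The lowest contralateral ratios were those of Eef1e1 (-0.24) and Eef2kmt (-0.23), and the highest were those of Eif5b (0.29) and Eef2k (0.25). On the ipsilateral side 1 was higher (1.79%, background 6.53%) and 7 were lower (12.5%, background 5.94%), with a median of -0.14, against 0.03 for all genes. The 7 were Eif5b, Eef1b2, Eif2s2, Eif4g1, Eif3a, Eif3j and Eif3c, and the 1 higher was Eif4h. Past 1, Eif5b and Eef1b2 were lower (3.57%, background 0.658%) and 0 were higher (background 0.321%). Age was not tested, since the labels do not say whether the libraries of an age were made from the same animals.

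The 7 lower genes were picked for a 21 month ipsilateral value below the 13 month one, and all 7 were also below both contralateral libraries there. For Eif3c this margin was small, with 86.1 RPKM against 89.4 and 93.6 RPKM contralaterally at 21 and 13 months. Its 13 month ipsilateral value was 122 RPKM. Eif5b (ENSRNOG00000023356, chromosome 9), the factor that joins the ribosomal subunits, had 2.80 RPKM in the 21 month ipsilateral library and 12.3 RPKM in the contralateral one, and 12.7 RPKM in the 13 month ipsilateral library and 9.86 RPKM in the contralateral one. The 21 month ipsilateral value stood far below the other 3, which lay within 9.86 to 12.7 RPKM. The log2 ratio was -1.81 between the sides at 21 months and -1.85 between the ages ipsilaterally, and Eif5b did not pass in the fit over both ages in limma (adjusted p = 0.109), except when the libraries were scaled by median ratio. A further table entry without a gene symbol of this family, AABR07043748.1 on chromosome 19, is described there as eIF5B. It had 3.53 RPKM ipsilaterally and 8.69 RPKM contralaterally at 21 months, and 8.73 and 6.09 RPKM at 13 months, a side ratio of -1.10 at 21 months and 0.46 at 13 months. Both entries were thus lowest in the same library, and reads may be shared between them.

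Eef1b2 (ENSRNOG00000024186, chromosome 9), which encodes the GTP exchange subunit of eEF1B, had 130.04 RPKM ipsilaterally and 216 RPKM contralaterally at 21 months, and 307 and 207 RPKM at 13 months. It was lowest in the ipsilateral library of the old rats and highest in that of the adult rats, with side ratios of -0.73 and 0.57. Its complex partners Eef1d and Eef1g did not share this, with ipsilateral age ratios of -0.23 and -0.11 against -1.23 for Eef1b2. Eif2s2 had 138 and 173 RPKM at 21 months and 241 and 182 RPKM at 13 months, ipsilateral first. Eif3a, the largest eIF3 subunit, had 96.6 and 125 RPKM at 21 months and 145 and 120.3 RPKM at 13 months, ipsilateral first. In Eef1b2, Eif2s2 and Eif3a the ipsilateral value was below the contralateral one at 21 months and above it at 13 months. Eif4h, a cofactor of eIF4A, ran the other way, with 101 and 66.4 RPKM at 21 months and 70.2 and 74.8 RPKM at 13 months, ipsilateral first.

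In all, 12 of 56 factors were lowest in the 21 month ipsilateral library (21.4%, background 20.8%) and 17 of 56 were highest there (30.4%, background 33%). Lower there than in any other library by at least 0.5 were Eif5b and Eef1b2 (3.57%, background 0.995%). The side ratio was smaller at 21 than at 13 months for 35 of 56 factors (62.5%, background 44.3%). A drop of the side ratio by at least 0.5 was found for 6 (10.7%, background 6.92%) and a gain for 2 (3.57%, background 9.79%). By at least 1 it dropped for Eif5b and Eef1b2 (3.57%, background 0.757%) and gained for 0 (background 0.65%). Across the 56 genes the side ratios of 21 and 13 months, which share no library, correlated with r = 0.31 (Pearson) and rho = 0.25 (Spearman). Across all 12160 genes r was 0.77 and rho 0.52. Side ratios of all genes ran from -3.14 to 5.18 at 21 months and from -3.16 to 5.56 at 13 months. Those of the factors ran from -1.81 to 1.33 and from -0.50 to 1.23. A narrower range can lower a correlation, so these values do not show that the factors agreed less between the ages. Genes are not independent replicates, and library effects enter every gene, so these are descriptions.

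Other genes of the pathway were taken from lists of regulators and neighbours of these factors. Of 14 genes of mTOR and MNK signalling 2 rose in limma and 0 fell, at an unadjusted p under 0.05 likewise 2 and 0. They were Mknk1 and Mknk2, the kinases that phosphorylate eIF4E. Mknk1 had 11.2 RPKM ipsilaterally and 5.73 RPKM contralaterally at 21 months, and 10.7 and 5.59 RPKM at 13 months (0.85 ± 0.17, SE, adjusted p = 0.000861 in limma, 2 libraries per side). Mknk2 had 9.37 and 5.54 RPKM at 21 months and 9.68 and 5.99 RPKM at 13 months, ipsilateral first (adjusted p = 0.0106 in limma). Mtor itself, the kinase gene, had side ratios of 0.06 and -0.14, and Rictor, a subunit gene of mTOR complex 2, was lowest of the list with -0.24 and -0.06. Of 5 genes of poly(A)-binding proteins and their partners, Pabpc1, whose product bridges the poly(A) tail and eIF4G, rose by 1.11 in limma (adjusted p = 4.46e-05), with 204 and 103 RPKM at 21 months and 283 and 119 RPKM at 13 months, ipsilateral first. Paip2b was lowest, at -0.10 and -0.45.

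Of 6 genes of eIF2 kinases and phosphatase subunits 1 rose in limma and 0 fell (backgrounds 13.3% and 0.814%). The counts at an unadjusted p under 0.05 in limma were 2 and 0. The 1 that rose was Eif2ak2, the interferon-inducible kinase PKR, with 32.8 RPKM ipsilaterally and 20.9 RPKM contralaterally at 21 months, and 25.8 and 12.8 RPKM at 13 months (adjusted p = 0.00215 in limma). Eif2ak4, the amino acid sensor GCN2, was lowest with ratios of -0.27 and -0.05. Of 14 targets of the integrated stress response tested, the pathway downstream of eIF2 phosphorylation, 2 rose and 0 fell in limma, with 4 and 0 at an unadjusted p under 0.05. They were the transcription factor genes Cebpb (1.92) and Atf3 (1.37), which other injury signals also induce. Atf4, the central transcription factor of the response, had 128 and 131 RPKM at 21 months and 121 and 130.2 RPKM at 13 months, ipsilateral first, with ratios of -0.04 and -0.11. Chac1 was lowest, with 0.03 and -0.62.

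In the remaining lists, whose highest and lowest members by the mean of both side ratios are named, 0 genes passed in limma in either direction. In limma the background was 13.3% rising and 0.814% falling, with 2299 higher and 544 lower of 12160 genes at an unadjusted p under 0.05. Among 22 cytosolic tRNA synthetase genes the counts at an unadjusted p under 0.05 were 2 in the higher and 0 in the lower direction, with Rars (0.51 and 0.45 at 21 and 13 months) highest and Cars (-0.28 and -0.21) lowest. Among 10 mitochondrial translation factor genes 1 was higher and 0 lower at that level, with Mtif3 (0.62 and 0.25) highest and Mtif2 (-0.30 and -0.08) lowest. Among 8 release and recycling genes tested 1 was higher and 0 lower, with the release factor gene Etf1 (0.24 and 0.61) highest and Gspt2 (-0.22 and -0.38) lowest. Among 8 genes of hypusine and diphthamide synthesis, the modifications of eIF5A and eEF2, 0 were past that level, with Dohh (0.76 and 0.01) highest and Dph7 (-0.17 and -0.01) lowest.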

How the data were processed

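RPKM values of 17853 genes in 4 libraries were deposited by the authors, rounded to 2 decimals. Per the labels' protocols, RNA of 9 rat brains was pooled, poly(A)-selected and made into directional libraries. Tools named in the submitters' processing notes are cutadapt, TopHat2 and edgeR, with no versions, and the build named is the human GRCh38, while the identifiers are rat Ensembl genes. Neither the counting step nor the gene lengths are given in the sources used here. Depth could not be recovered: values above 0 begin at the rounding step of 0.01 RPKM in each library.

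The scale was log2(RPKM + 1), over 12160 genes whose mean reached 1 RPKM (5693 left out). Single libraries were compared as log2 ratios with no test. limma (3.58.1, R 4.3.3) fitted a model of side plus age (lmFit, eBayes, two-sided, Benjamini-Hochberg over all genes, threshold 0.05) and was tested on simulated data. Its residual is the age-by-side difference. With 1 residual degree of freedom, the spread used for a gene was drawn largely from a value that eBayes shares over all genes. The SE was 0.169 for Eif4ebp1 and 0.290 for Eif5b, whose side ratios differed between the ages by 0.09 and -2.14. The p-values rest on that spread and on pooled libraries, and do not measure the spread between animals.

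The members and lists were chosen with earlier results of these data known. Named genes were those past 0.5 with the same sign at both ages, those past 1 in any comparison, the 5 highest and 5 lowest of each comparison, paralog pairs and the 5 most abundant; of each related list, the highest, the lowest and Atf4. Other genes named were picked after their values were seen. Of 153 entries of related and marker lists 146 were matched, each to the entry with the highest mean of its symbol. Choroid plexus, erythroid and endothelial marker lists had median side ratios of -0.83, -0.46 and 0.03 at 21 months. At 13 months the medians were -0.51, -0.22 and 0.08. In limma 5 of 6, 1 of 3 and 0 of 3 of their markers fell (background 0.814%). Promoter sequences are RefSeq's, build GRCr8, and RefSeq was otherwise used for names and chromosomes only. Alternatives were other pseudocounts, filters and scalings, a threshold of 1 and the fit without age.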

Additional observations from a re-analysis of the deposited data

Results flagged for a closer look

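The side ratio had opposite signs at the ages, with a difference of at least 0.5 on the log2 scale, for 8 of 56 translation factor genes (14.3%, background 10.7%). With 1 library per group the difference was not tested. The side ratio at 21 months minus that at 13 months was -2.14 for Eif5b, -1.30 for Eef1b2, -0.72 for Eif2s2, -0.63 for Eif3a, -0.53 for Eif4e3 and -0.51 for Eif4g1. It was 0.69 for Eif4h and 0.50 for Eif2b4, with the larger side ratio at 21 months. The ratios of Eif5b were -1.81 at 21 months and 0.33 at 13 months, those of Eef1b2 -0.73 and 0.57, and those of Eif4h 0.60 and -0.09.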

How the results depend on the processing

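Precision is limited by 1 library per group and unknown depth. The median side ratio of the factors moved to 0.0911 at 21 months without the mitochondrially encoded genes in the scaling, from 0.20. The 9 genes higher on the ipsilateral side at 21 months became 4 under median-ratio scaling and 4 without the mitochondrially encoded genes, and the 8 at 13 months became 4 without them. The 1 gene higher at 21 months on the ipsilateral side became 0 under median-ratio scaling, and the 2 genes with a gain of the side ratio became 1 under each scaling. At a threshold of 1, 1 gene was higher and 1 lower at 21 months, 2 were higher and 0 lower at 13 months, 0 were higher and 2 lower between the ages ipsilaterally, and the side ratio gained for 0 and dropped for 2. The 5 genes that rose in limma (1618 of all genes) were 3 with 0.1 RPKM added (1590 of all genes), 2 without the mitochondrially encoded genes (1173), 0 with no filter (0 of all genes; 16 of 58 at an unadjusted p under 0.05) and 4 without the age term (1190), while under median-ratio scaling 1 fell, Eif5b (248 of all genes). The small positive medians of the eIF1, eIF5 and eIF6 genes at 21 months (0.10) and of the eIF5A genes (0.05) changed sign under both scalings. Without Eif3e and Eif3h, an alternative chosen after seeing the data, 8 genes were higher at 21 months and 4 rose in limma. No single gene past 0.5 changed sign under the alternatives run for it. The labels give no replicate numbers, and the fit of side plus age compares the sides within each age.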
